A study of Mus musculus with 4 samples.

Results

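Homeobox and T-box genes encode transcription factors that give cells a position in the body plan, and they were described here in mouse brown adipocytes that expressed the long noncoding RNA Blnc1 or an empty vector. The genes were picked by a rule on gene names, and earlier results of these data were known when they were chosen. The rule took the Hox, Tbx, Meis, Pbx, Irx, sine oculis (Six4 and relatives), Meox, Prrx, Pitx, Lhx, Msx, Dlx, Emx, En, Shox2 and Zic genes for which a probe set carried exactly 1 gene symbol. There were 46 such genes, read by 60 probe sets, among 10926 genes named in the table; RefSeq holds 120 mouse gene symbols of these families, and the rest were not analysed here. Where a gene had several probe sets, the brightest on average over the 4 arrays stood for it. The tested cells were wild-type brown adipocytes differentiated for 6 days from preadipocytes expressing Blnc1 (2 arrays), and their controls were wild-type brown adipocytes differentiated in the same way from preadipocytes expressing vector (2 arrays). All 4 samples thus carried an expression construct. The labels call the replicates biological; whether they came from separate animals or separate transductions, and the strain and sex of the mice, are not given in the sources used here. The p-values therefore measure the spread between these arrays, which may be technical.

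Hox genes lie in 4 clusters, named a to d, and the low-numbered genes of a cluster are switched on nearer the head of the embryo than the high-numbered ones. Meis and Pbx proteins bind DNA together with Hox proteins. The pattern set in the embryo persists in adult mesenchymal cells, so that fat depots differ in the Hox, T-box and other homeobox genes they express, and several of these genes are used to tell brown, beige and white fat apart. Blnc1 is induced during brown adipocyte differentiation and acts with the transcription factor EBF2.

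The values are log2 expression values from single-colour Affymetrix arrays, and the median over all 23599 probe sets lay between 5.98 and 6.04 on the 4 arrays. The brown adipocyte label was checked against marker genes. The general adipocyte genes Fabp4, Adipoq, Lpl and Cd36 read between 11.36 and 13.29 on every array, and Ucp1, the uncoupling protein of brown fat, read 7.97 and 8.05 in Blnc1 cells against 5.01 and 5.01 in vector cells, where it lay below the array median. Of 9 brown adipocyte markers 8 were measured, of which 5 (62.5%) rose in Blnc1 cells, against 0.86% of all genes. Ebf2, Elovl3 and Prdm16 read higher by 0.38, 0.27 and 0.22 on the log2 scale and did not pass the test. Measured were 2 of 6 macrophage and leukocyte markers, 1 of 5 endothelial markers and 4 of 8 skeletal muscle markers. These 7 lay below the median on all arrays, and the unmeasured ones leave this check incomplete. The groups also differed outside adipocyte genes: all 18 hybridization controls were lower in both Blnc1 arrays (median difference -0.27), the Y-linked Eif2s3y, Uty and Kdm5d had log2 differences of -1.18, -1.02 and -0.87, and Xist one of 0.55. The part of these differences in the results below was not tested.

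Most of the positional identity genes read in the lower part of the arrays' range. Above the array median on all 4 arrays were 11 of 46 genes (23.9%), against 57.2% of all genes. They were the Hox genes Hoxa5, Hoxb3, Hoxc8 and Hoxd8, the antisense transcript Hoxb5os, the T-box genes Tbx15 and Tbx18, the TALE genes Irx5, Meis2 and Pbx2, and the paired-related gene Prrx1. The dimmest of the 11 was Tbx18, which came closest to the median in vector replicate 1 (6.08). Hoxa3 exceeded the median only in Blnc1 replicate 2 (6.14), and Hoxa9 stood just under it, at 5.91 and 5.74 in Blnc1 cells against 5.96 and 5.94 in vector cells. The other genes were below the median throughout. A value below the median is no test of absence, since the table gives no detection call, and brightness also depends on the probes, so these levels do not rank the genes by abundance.

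**Figure D1:**
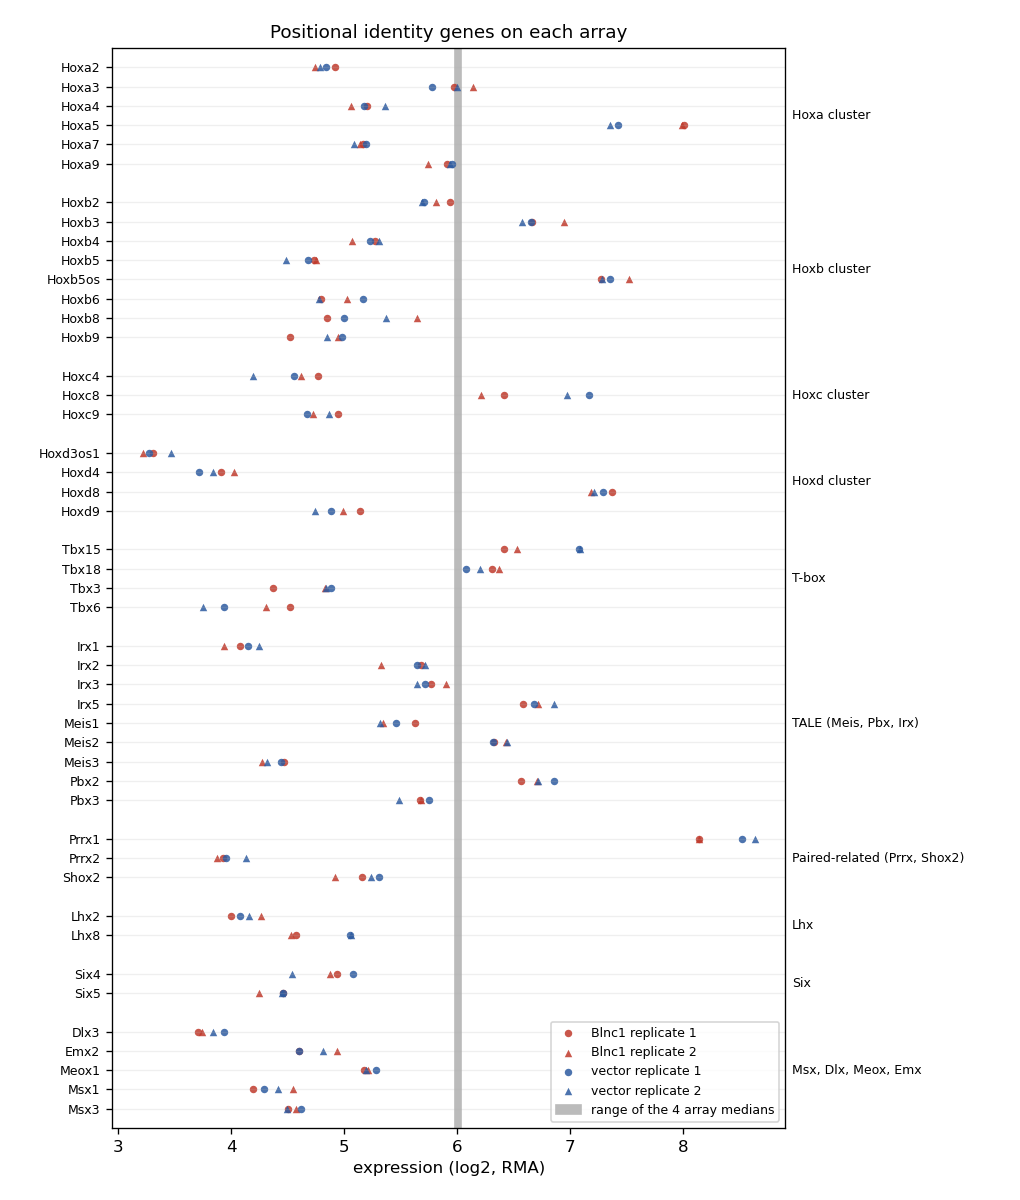
Log2 expression of the 46 positional identity genes (rows, grouped by family) on each array; red marks Blnc1 cells, blue vector cells, circles replicate 1 and triangles replicate 2, and the grey band spans the array medians of 5.98 to 6.04. The 11 genes to the right of the band are those above the median on all 4 arrays, and the colours are fully separated and far apart for Hoxa5, Hoxc8, Tbx15, Prrx1, Lhx8 and Tbx6.

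Between Blnc1 and vector cells 1 of the 46 genes rose and 1 fell. The gene that rose was Hoxa5 and the gene that fell was Tbx15, each by 1.53-fold. The test was limma over all 23599 probe sets with Benjamini-Hochberg adjustment and a threshold of 0.05. The 2 calls are 4.35% of the 46 genes, while 1.23% of all 10926 genes passed (0.86% higher and 0.366% lower); a share resting on 2 genes is imprecise. A further 4 genes had an adjusted p between 0.05 and 0.10: Hoxc8, Lhx8 and Prrx1, which read lower in Blnc1 cells, and Tbx6, which read higher. Counted at 0.10, 6 of 46 genes passed (13%), against 4.99% of all genes. At an unadjusted p under 0.05 there were 7 of 46 (15.2%, the 6 just named and Hoxd9), against 20.7% of all genes. This share differs with brightness. It was 14.2% among all genes below the array median on all 4 arrays and 23.6% among those above it. Of the members, 34 lay below it on all 4 arrays.

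Differences between the groups went both ways and were small for the median gene. Of the 46, 24 had a positive and 22 a negative log2 fold change, and the median was 0.0051, against 0.0073 over all genes. The median absolute difference between groups was 0.14, while Blnc1 replicates differed by a median of 0.15 and vector replicates by 0.12. Over all genes these values were 0.11, 0.097 and 0.083. The group value compares means of 2 arrays and the replicate values compare single arrays. With no effect the group value would be the smaller, so they are not measured alike. The groups did not overlap for 21 of the 46 genes (45.7%), 10 higher and 11 lower in Blnc1 cells, against 53.2% of all genes (28.3% higher and 24.9% lower). That share was 41.5% among all genes below the array median on all 4 arrays and 60.4% among those above it. With 2 arrays against 2 an exact permutation test cannot give a two-sided p below 0.333, and the calls given here are limma's, which shares variance across probe sets.

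**Figure D2:**
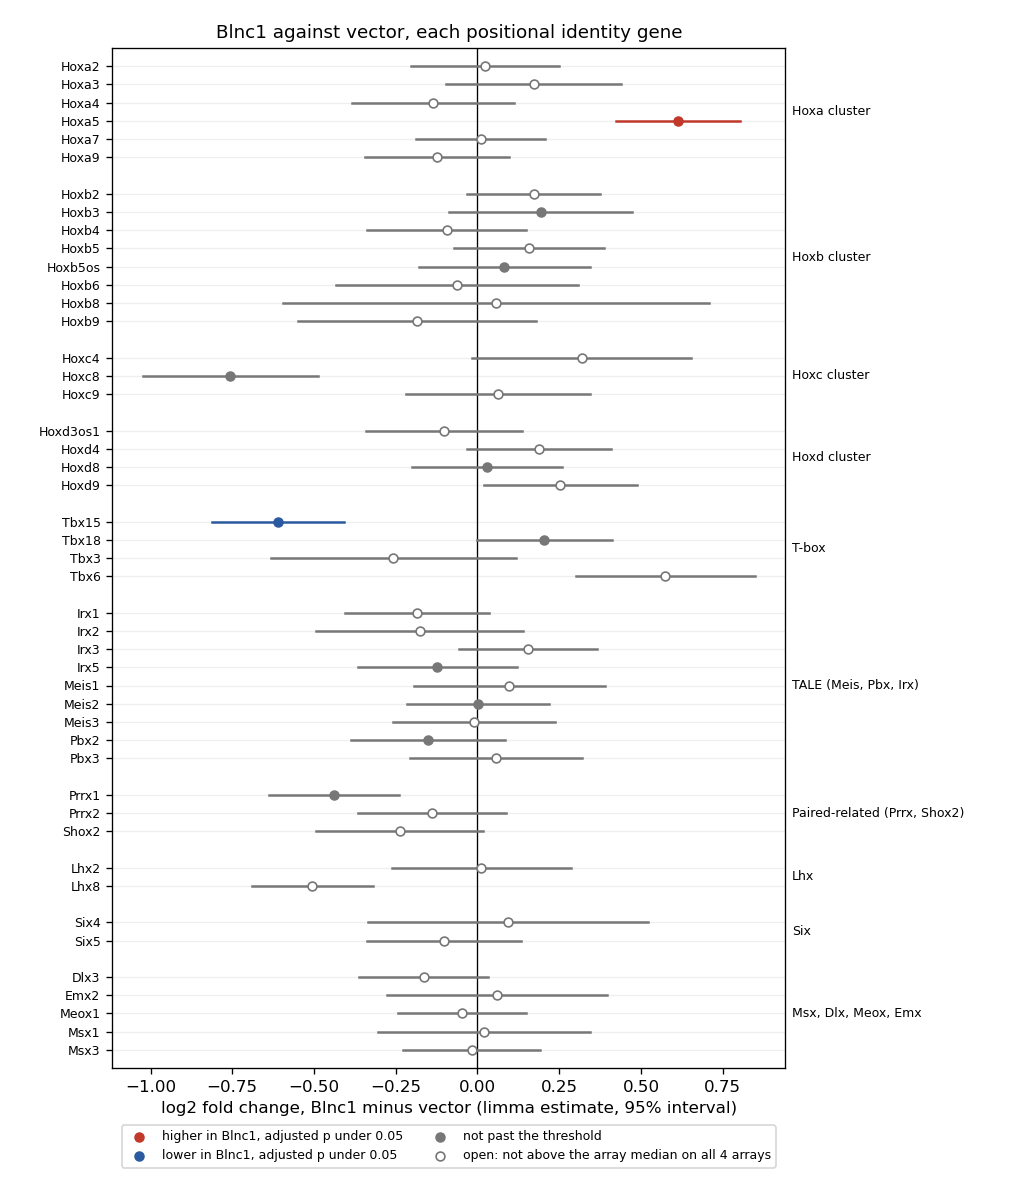
Log2 fold change, Blnc1 minus vector, of each of the 46 genes with its 95% interval from limma; filled points are genes above the array median on all 4 arrays, red is higher and blue lower past an adjusted p of 0.05, and grey did not pass. Hoxa5 (0.61) and Tbx15 (-0.61) are the coloured points, and the intervals of Hoxc8, Lhx8, Prrx1, Tbx6 and Hoxd9 also leave out 0.

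In the Hoxa cluster the gene that moved was Hoxa5, which in the mouse embryo patterns the neck and upper chest region and the lung. It read 8.01 and 7.99 in Blnc1 cells, against 7.42 and 7.35 in vector cells. Both Blnc1 arrays lay above both vector arrays, and the replicates of each group were closer together than the groups. The log2 fold change was 0.61 ± 0.078 (SE), a 1.53-fold rise (limma adjusted p = 0.0409). The call was lost when any single array was left out, with adjusted p of 0.133 and 0.163 without Blnc1 replicate 1 and 2 and of 0.113 and 0.135 without vector replicate 1 and 2, while the log2 fold change stayed between 0.58 and 0.65.

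The neighbours of Hoxa5 in the cluster did not pass the test. Hoxa4 had a log2 fold change of -0.14 ± 0.10 and Hoxa3 one of 0.17 ± 0.11 (SE). Hoxa7 stood at 0.0093 ± 0.081 (interval -0.19 to 0.21) and Hoxa9 at -0.12 ± 0.090. Both lay below the array median on all 4 arrays, where differences are compressed, and neither was tested against Hoxa5. Hoxa2, the gene of the cluster nearest the head among those measured, stood at 0.024 ± 0.092. Hoxaas2, a noncoding transcript that lies beside Hoxa3 and is outside the name rule, read 4.85 and 4.66 in Blnc1 cells against 4.81 and 4.81 in vector cells. Hoxa6, which follows Hoxa5 in the cluster, was not analysed here.

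In the Hoxc cluster Hoxc8 had the largest difference of all 46 genes. Hoxc8 patterns the chest vertebrae of the mouse, is used as a marker of white fat and represses the adipogenic factor gene Cebpb in mouse white fat progenitors. It read 6.41 and 6.21 in Blnc1 cells, against 7.16 and 6.97 in vector cells. The groups did not overlap, and replicate arrays were further apart than for Hoxa5. The log2 fold change of -0.76 ± 0.11 (SE, interval -1.02 to -0.49) missed the threshold narrowly (limma adjusted p = 0.0501). Over the alternatives its adjusted p ranged from 0.00174 with an intensity trend in the variance prior to 0.172 without the second Blnc1 array. It passed when each array was centred on its median (-0.77, limma adjusted p = 0.0396) and among bright probe sets (0.0190). It also passed without _s_at and _x_at probe sets (0.0444) and with probe sets averaged per gene (0.0381). It did not pass with a robust variance prior (0.0546), repeated quantile normalization (0.0531) or the replicate block (0.0819). Without 1 array its log2 fold change lay between -0.86 and -0.66.

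Its neighbour Hoxc9, which also marks white and beige fat, read 4.95 and 4.72 in Blnc1 cells, against 4.67 and 4.87 in vector cells. These values overlap, and the interval of the difference was -0.22 to 0.34. Hoxc9 lay below the array median on all 4 arrays, where differences are compressed, and it was not tested against Hoxc8. Hoxc4, at the other end of the cluster, read 4.77 and 4.62 in Blnc1 cells, against 4.56 and 4.19 in vector cells (log2 fold change 0.32 ± 0.14 SE, limma adjusted p = 0.283). Hoxc10 was not analysed here.

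No gene of the Hoxb and Hoxd clusters passed. Hoxb3, a gene of the hindbrain and neck region, read 6.66 and 6.95 in Blnc1 cells, against 6.66 and 6.57 in vector cells. The groups nearly touch, and the log2 difference of 0.19 was 0.051 without Blnc1 replicate 2. The other measured Hoxb genes lay between -0.18 (Hoxb9) and 0.17 (Hoxb2) on the log2 fold change scale. Hoxb8 was the least precise of them: it read 4.85 and 5.64 in Blnc1 cells and 5.00 and 5.37 in vector cells, with an interval of -0.59 to 0.71. The antisense transcript Hoxb5os read 7.27 and 7.52 in Blnc1 cells, against 7.35 and 7.28 in vector cells, while Hoxb5 itself was dim and stood at 0.16 ± 0.093.

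Hoxd8, the bright gene of the Hoxd cluster, read 7.37 and 7.19 in Blnc1 cells and 7.29 and 7.21 in vector cells. These overlap, and the interval of the difference was -0.20 to 0.26. Its other, dimmer probe set read 6.06 and 5.99 in Blnc1 cells, against 5.91 and 5.70 in vector cells. These do not overlap, and the difference of 0.22 on the log2 scale did not pass (limma adjusted p = 0.296). Hoxd8 belongs to the same paralogue group as Hoxc8, which makes it the nearest relative of that gene with a level above the median. Hoxd9 read 5.14 and 4.99 in Blnc1 cells, against 4.88 and 4.74 in vector cells, higher by 0.25 ± 0.096 (SE) on the log2 scale, which did not pass (limma adjusted p = 0.232). Hoxd4 stood at 0.19 ± 0.090, and the antisense transcript Hoxd3os1 at -0.10 ± 0.097. Of all 21 Hox cluster transcripts 14 were higher and 7 lower in Blnc1 cells by sign alone, and the median log2 fold change was 0.056.

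**Figure D3:**
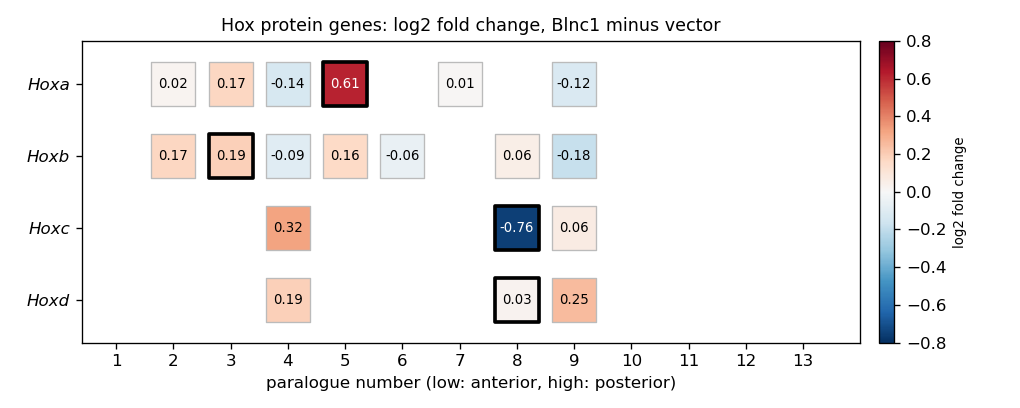
Log2 fold change, Blnc1 minus vector, of the 19 measured Hox protein genes by cluster (rows) and paralogue number (columns); red is higher in Blnc1 cells, blue lower, and a black frame marks a level above the array median on all 4 arrays. Hoxa5 (0.61) and Hoxc8 (-0.76) are the darkest squares, and the other genes lie between -0.18 (Hoxb9) and 0.32 (Hoxc4); empty places were not analysed.

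The T-box genes went both ways. Tbx15, which in the mouse shapes the skeleton and the coat pattern, is expressed at different levels in different fat depots and takes part in brown and beige adipocyte differentiation, was the gene that fell. It read 6.41 and 6.53 in Blnc1 cells, against 7.07 and 7.09 in vector cells. The groups were well apart and the vector arrays nearly coincided. The log2 fold change was -0.61 ± 0.082 (SE), 1.53-fold lower in Blnc1 cells (limma adjusted p = 0.0454). As for Hoxa5, the call was lost without any single array (adjusted p 0.134 and 0.159 without Blnc1 replicate 1 and 2, 0.137 and 0.136 without vector replicate 1 and 2), and also after repeated quantile normalization (adjusted p = 0.0584).

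Tbx18, a gene of the epicardium and of vessel-wall and other mesenchymal progenitors, read 6.31 and 6.37 in Blnc1 cells, against 6.08 and 6.20 in vector cells. The groups did not overlap, and the log2 fold change of 0.20 ± 0.084 (SE) did not pass (limma adjusted p = 0.268). Tbx6, which directs the somite-forming mesoderm, was dim in both groups and read 4.53 and 4.31 in Blnc1 cells, against 3.94 and 3.75 in vector cells. Its log2 fold change was 0.57 ± 0.11 (SE, limma adjusted p = 0.0818). Tbx3, a gene of limb and mammary development, stood at -0.26 ± 0.15, and its arrays were spread over 4.38 and 4.83 in Blnc1 cells and 4.88 and 4.84 in vector cells. Tbx1 and Tbx5 were not analysed here.

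The paired-related homeobox genes all had negative values. Prrx1, a marker of limb and other mesenchyme that restrains adipogenesis in mouse cells, read 8.14 and 8.14 in Blnc1 cells, against 8.52 and 8.63 in vector cells. The groups were apart and the log2 fold change was -0.44 ± 0.081 (SE), but it did not pass (limma adjusted p = 0.0764). Its 4 further probe sets were dimmer and had log2 fold changes of -0.11, -0.53, -0.14 and -0.26, all negative and none past the threshold. Shox2, a homeobox gene of the limb and heart that is also active in subcutaneous fat, read 5.16 and 4.92 in Blnc1 cells, against 5.31 and 5.24 in vector cells. Its log2 fold change was -0.24 ± 0.10 (SE, limma adjusted p = 0.293). Prrx2 was dim and stood at -0.14 ± 0.092.

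Of 9 preadipocyte and fibroblast markers 7 were measured. All 7 had a negative log2 fold change, and their median difference was -0.42 on the log2 scale. The test was passed by 1 of the 7 (14.3%), against 1.23% of all genes (0.366% lower). That share rests on 1 gene. Sfrp2, a secreted Wnt modulator, fell (-0.82 ± 0.11 SE, limma adjusted p = 0.0455). The mean log2 level over the list was 5.96 and 5.95 on the Blnc1 arrays, against 6.34 and 6.37 on the vector arrays; Dlk1, Thy1, Pdgfra and Pdgfrb lay below the array median on all arrays. Fewer cells of a kind and less RNA per cell cannot be told apart in bulk samples, and the part of these markers in the values of Tbx15, Prrx1 and Hoxc8 was not tested.

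Of the genes, 10 were read by several probe sets, with 14 further probe sets in all. Of these 9 had the sign of the probe set used and 5 the opposite one, and none passed the threshold. Those with the opposite sign belonged to Hoxa3, Hoxb4, Meis2 and Pbx2, whose values on the probe set used are at most 0.17 in size. The probe sets of opposite sign lay between -0.26 (Meis2) and 0.20 (Hoxb4), so some differed more than the one used. Hoxa5, Hoxc8, Tbx15, Lhx8 and Tbx6 each had a single probe set, so their differences have no second reading on the array.

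**Figure D4:**
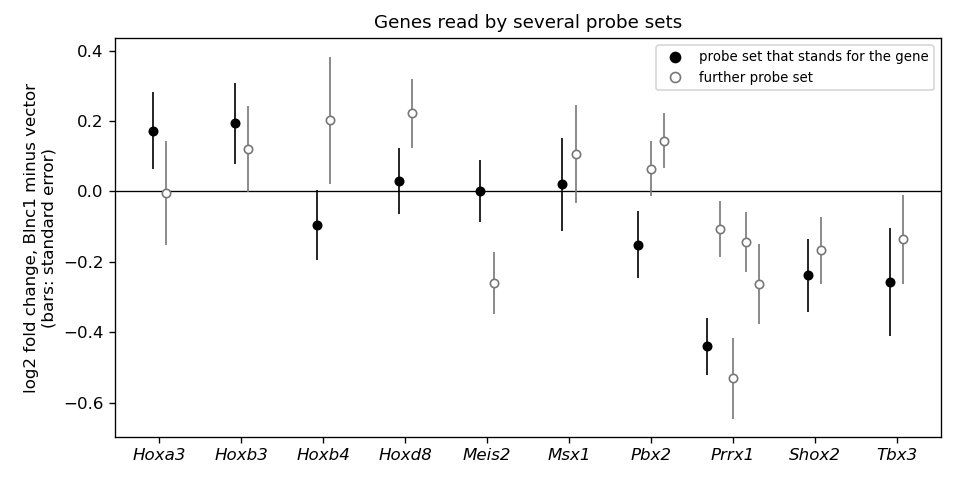
Log2 fold change, Blnc1 minus vector, with its standard error for each probe set of the 10 genes with several, in order of falling mean brightness within a gene; black is the probe set used. The 5 probe sets of Prrx1 all lie below 0, between -0.53 and -0.11, while those of Pbx2, Meis2, Hoxb4 and Hoxa3 lie on different sides of 0.

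Among the LIM homeobox genes, Lhx8, which specifies forebrain cholinergic neurons and is used as a marker of classical brown fat, was dim in both groups. It read 4.57 and 4.53 in Blnc1 cells, against 5.06 and 5.06 in vector cells. The replicates of each group almost coincided, and the log2 fold change was -0.50 ± 0.076 (SE, interval -0.69 to -0.32, limma adjusted p = 0.0547). Over the alternatives its adjusted p ranged from 0.0198 with the intensity trend to 0.182 without the second Blnc1 array. It passed when each array was centred on its median (-0.52, limma adjusted p = 0.0479) and with probe sets averaged per gene (0.0412). It did not pass with a robust variance prior (0.0570), repeated quantile normalization (0.0556) or the replicate block (0.103), or without _s_at and _x_at probe sets (0.0535). Without 1 array its log2 fold change lay between -0.53 and -0.48. Lhx2, a gene of the limb, eye and hair follicle, stood at 0.012 ± 0.11. The brown fat markers Zic1 and Meox2, and En1, which marks embryonic cells that form brown fat, were not analysed here.

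The Hox cofactors of the TALE class did not pass. Meis2 read 6.33 and 6.43 in Blnc1 cells, against 6.32 and 6.44 in vector cells. The groups were interleaved, and the interval of the difference was -0.22 to 0.22 on this probe set, although its dimmer one stood at -0.26 ± 0.089. Pbx2 read 6.56 and 6.71 in Blnc1 cells, against 6.86 and 6.72 in vector cells, and its 2 further probe sets had the opposite sign (0.065 and 0.14). Meis1, Meis3 and Pbx3 lay between -0.011 and 0.098. Of the Iroquois genes, Irx5 read 6.58 and 6.72 in Blnc1 cells and 6.68 and 6.86 in vector cells, which overlap. Irx3, which with Irx5 has been linked to thermogenesis in human adipocytes, read 5.77 and 5.90 in Blnc1 cells, against 5.72 and 5.64 in vector cells (log2 fold change 0.15 ± 0.086 SE). Irx1 and Irx2 stood at -0.18 and -0.18.

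The remaining homeobox genes were dim, between 3.71 and 5.29 on every array, and none passed. Six4 and Six5, members of the sine oculis family, stood at 0.094 ± 0.18 and -0.10 ± 0.096 (SE). The somite gene Meox1 stood at -0.048 ± 0.080, the limb and skull gene Msx1 at 0.020 ± 0.13, Msx3 at -0.018 ± 0.086, the epidermal and placental gene Dlx3 at -0.16 ± 0.081 and the brain and kidney gene Emx2 at 0.060 ± 0.14.

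Promoter sequences were read for the 6 genes with an adjusted p under 0.10, to show the DNA around their starts, and RefSeq promoters were held for 4 of them. Each is printed on its own strand, from 250 bases before to 50 bases after the annotated start, in build GRCm38.p6. Capitals mark matches, on either strand, to the Hox-Pbx motif TGATNNAT, the Meis motif TGACAG, the T-box motif GGTGTGA, the EBF motif CCCNNGGG, the TATA box TATAAA and the CCAAT box. These motifs occurred in 8.85%, 19.2%, 3.98%, 13.7%, 13.6% and 37.4% of all 32851 promoters of the same length.
Hoxa5 (chr6:52204538-52204837, minus strand): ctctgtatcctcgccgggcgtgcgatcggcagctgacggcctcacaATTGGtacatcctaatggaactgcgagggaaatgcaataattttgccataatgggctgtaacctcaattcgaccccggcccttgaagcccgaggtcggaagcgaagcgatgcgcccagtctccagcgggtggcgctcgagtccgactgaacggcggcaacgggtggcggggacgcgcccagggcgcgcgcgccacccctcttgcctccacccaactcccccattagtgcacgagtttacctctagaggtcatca
Lhx8 (chr3:154330511-154330810, minus strand): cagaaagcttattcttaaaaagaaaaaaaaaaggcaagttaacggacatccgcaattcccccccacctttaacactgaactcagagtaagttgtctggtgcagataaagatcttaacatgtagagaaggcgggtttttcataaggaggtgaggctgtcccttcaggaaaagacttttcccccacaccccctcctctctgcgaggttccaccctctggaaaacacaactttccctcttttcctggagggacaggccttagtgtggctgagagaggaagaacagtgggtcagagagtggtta
Prrx1 (chr1:163313601-163313900, minus strand): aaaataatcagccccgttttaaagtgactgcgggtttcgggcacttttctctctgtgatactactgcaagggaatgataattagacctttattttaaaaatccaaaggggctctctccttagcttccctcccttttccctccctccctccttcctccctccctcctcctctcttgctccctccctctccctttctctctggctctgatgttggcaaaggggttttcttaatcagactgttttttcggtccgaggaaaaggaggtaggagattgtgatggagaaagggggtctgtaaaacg
Tbx6 (chr7:126781233-126781532, plus strand): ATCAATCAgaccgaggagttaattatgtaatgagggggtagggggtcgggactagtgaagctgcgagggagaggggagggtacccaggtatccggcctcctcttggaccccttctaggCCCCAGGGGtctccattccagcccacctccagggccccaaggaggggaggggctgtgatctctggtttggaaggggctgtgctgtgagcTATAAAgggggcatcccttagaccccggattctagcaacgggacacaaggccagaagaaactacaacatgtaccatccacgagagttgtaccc

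The Hoxa5 window was the richest in CpG dinucleotides, with 29, against 4 for Lhx8, 6 for Prrx1, 7 for Tbx6 and a median of 7 over all promoters. It held a CCAAT box on the opposite strand and none of the other motifs. Tbx6 held a Hox-Pbx match at the far end of the window, 2 overlapping EBF matches and a TATA box. Lhx8 and Prrx1 held none of the 6 motifs. A match is a description of the letters, and the absence of one says nothing about binding elsewhere.

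Chromatin regulators of Hox genes and the retinoic acid pathway were then described in the same fit. Polycomb proteins keep Hox genes silent and Trithorax proteins keep them active. Of 33 measured regulators (40 listed) none passed, and 6 (18.2%) had an unadjusted p under 0.05, against 20.7% of all genes; the median log2 fold change was 0.024. Jarid2, an accessory subunit of Polycomb repressive complex 2, came closest. It read 9.58 and 9.57 in Blnc1 cells, against 9.05 and 9.07 in vector cells, a difference of 0.52 ± 0.075 (SE) on the log2 scale (limma adjusted p = 0.0508). The catalytic subunits stood on different sides, Ezh1 at 0.30 ± 0.095 and Ezh2 at -0.24 ± 0.091, and the histone-binding Rbbp4 at -0.27 ± 0.077. None of the 3 passed (limma adjusted p 0.149 to 0.243). Ezh2, whose p was not among the 3 smallest of the list, was named as the other catalytic subunit.

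Retinoic acid, made from vitamin A, sets Hox expression along the embryo. Of 12 measured pathway genes (21 listed) none passed. An unadjusted p under 0.05 was found for 6 (50%), against 20.7% of all genes, and 4 were positive and 8 negative (median -0.048). The retinol carrier Rbp4 stood at 0.76 ± 0.15 and the retinol dehydrogenase Rdh11 at -0.51 ± 0.11 (SE, limma adjusted p = 0.0848 and 0.0935). Aldh1a1, which makes retinoic acid from retinaldehyde, stood at -0.33 ± 0.083 (adjusted p = 0.124).

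**Figure D5:**
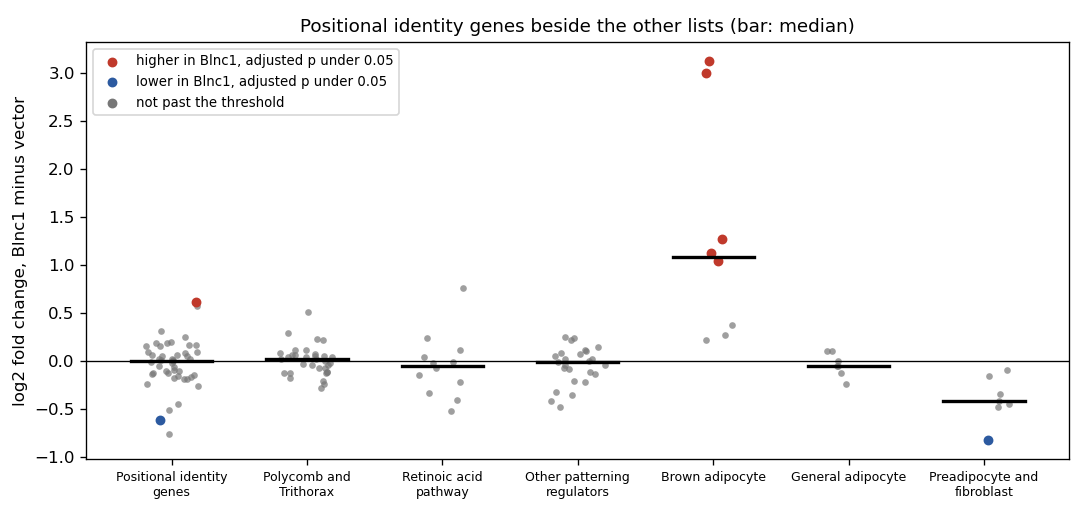
Log2 fold change, Blnc1 minus vector, of each measured gene in the positional identity families and in 6 other lists; red and blue points passed an adjusted p of 0.05, grey points did not, and bars are medians. The positional identity genes centre on 0.0051 with Hoxa5 and Tbx15 coloured, the brown adipocyte markers on 1.09 and the preadipocyte and fibroblast markers on -0.42.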

How the data were processed

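Total RNA was labelled with biotin and hybridised to Affymetrix mouse PM arrays, per the labels' protocols. The authors deposited 1 log2 value per probe set and array; RMA, limma and affy are named, without versions or settings, per the submitters' processing notes. The log2 scale was read from the range of 2.70 to 13.29. Raw intensities were not used here, and differences of dim probe sets are compressed by RMA. Of 23599 probe sets (35 controls left out), 16692 had 1 gene symbol in GEO's platform annotation, 372 several and 6535 none; all 46 members kept their symbol by Entrez ID in RefSeq.

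Blnc1 arrays were compared with vector arrays with the two-sided test of limma 3.58.1 (R 4.3.3; lmFit, then eBayes), with neither covariate nor filter, adjusted by Benjamini-Hochberg over all probe sets. The number of arrays limits the precision. On simulated arrays (23599 probe sets, 200 of them changed per run, 5 runs) the test recovered 19.4% of 1.5-fold and 85.2% of 2-fold changes. Recovery depends on how many probe sets change, which is not known for the real arrays, so these rates need not hold for them. The genes named were those above the array median, those with the largest differences or an unadjusted p under 0.05, a fixed set of depot genes and all Hox genes. In the lists of Hox regulators, retinoic acid genes and other patterning regulators they were the 3 with the smallest p, with Ezh2 and Twist1 added. The members and lists were chosen with earlier results of these data known. Alternatives were other variance priors, normalizations, filters, probe set choices and thresholds, a replicate block, and leaving out each array.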

Additional observations from a re-analysis of the deposited data

How the results depend on the processing

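Over all probe sets 219 passed (147 higher, 72 lower in Blnc1 cells); the count was 2174 with an intensity trend in the variance prior, 1020 among probe sets brighter than the median, 958 at an adjusted p of 0.10, 3 at 0.01, 30 with the replicate block, and 3 to 38 when 1 array was left out. After centring each array on its median it was 176 higher and 135 lower. The members' 2 calls of 46 became 6 of 46 with the trend, where 2174 of all 23599 probe sets passed. At 0.10 the same 6 passed (Hoxa5, Tbx15, Hoxc8, Lhx8, Prrx1 and Tbx6), against 958 of 23599. After centring 4 of 46 passed, against 311 of 23599, and with probe sets averaged per gene 4 of 46, against 281 of 17833 tested. Only 11 members were left among bright probe sets, and 4 of these passed, against 1020 of 11799. Repeated quantile normalization left 1 of 46, against 155 of 23599. The count was 0 of 46 at 0.01, against 3 of 23599, and 0 of 46 with the replicate block, against 30 of 23599. Whether replicates of the same number shared a preparation is not given, and the labels name no shared batch. Their deviations correlated at 0.089 across probe sets, which cannot settle it. The members above the median were 6 with the lowest-mean probe set of each gene. The groups did not overlap for 7 of the 11 members left among bright probe sets (63.6%). Among all genes above the array median on all 4 arrays the share was 60.4%. Without 1 array they did not overlap for 32 to 35 members, since fewer arrays are left to overlap. The share over all genes was not counted there. The members' median stayed between -0.041 and 0.016.

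Of 562 recomputed log2 fold changes of members 45 turned sign, in 22 genes whose main value was at most 0.18 in size; the 6 genes with an adjusted p under 0.10 turned in none. Centring turned Hoxa7 to -0.0067, Lhx2 to -0.0040 and Meis2 to -0.015, and repeated quantile normalization Meis2 to -0.0072. Other probe sets turned Hoxa3 to -0.0045 (without _s_at and _x_at probe sets, and on the lowest-mean one), Hoxb4 to 0.054 (mean) and 0.20 (lowest), Meis2 to -0.13 (mean) and -0.26 (lowest), and Pbx2 to 0.065 (without _s_at and _x_at probe sets), 0.019 (mean) and 0.14 (lowest). Leaving out 1 array turned the sign of these, with ranges of Emx2 -0.11 to 0.23, Hoxa2 -0.065 to 0.11, Hoxa7 -0.042 to 0.061, Hoxb4 -0.20 to 0.010, Hoxb5os -0.045 to 0.21, Hoxb6 -0.26 to 0.13, Hoxb8 -0.34 to 0.45, Hoxb9 -0.40 to 0.027, Hoxc9 -0.050 to 0.18, Hoxd8 -0.061 to 0.12, Irx2 -0.36 to 0.0022, Lhx2 -0.12 to 0.15, Meis1 -0.048 to 0.24, Meis2 -0.063 to 0.065, Meis3 -0.11 to 0.086, Msx1 -0.16 to 0.20, Msx3 -0.080 to 0.044, Pbx3 -0.077 to 0.19, Six4 -0.18 to 0.37 and Six5 -0.21 to 0.0025. The cause was not tested.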

Other observations

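Other mesodermal and patterning regulators, which the name rule leaves out, were measured for 25 of 50 listed genes. None passed the threshold (limma, Benjamini-Hochberg over all probe sets), 6 (24%) had an unadjusted p under 0.05, against 20.7% of all genes, and the median log2 fold change was -0.0048, with 12 positive and 13 negative. Gata6, a zinc-finger factor of heart and gut mesoderm and endoderm, was dim and read 5.30 and 5.09 in Blnc1 cells, against 5.73 and 5.62 in vector cells (log2 fold change -0.48 ± 0.10 SE, adjusted p = 0.0939). Tgif2, a homeobox repressor in TGF-beta signalling, read 4.84 and 4.85 in Blnc1 cells, against 5.16 and 5.23 in vector cells (-0.35 ± 0.078 SE, adjusted p = 0.0983). Twist2, a basic helix-loop-helix factor of mesenchyme, read 6.22 and 5.97 in Blnc1 cells, against 6.58 and 6.44 in vector cells (-0.42 ± 0.11 SE, adjusted p = 0.137). Its relative Twist1, chosen after its values were seen, read 6.22 and 6.23 in Blnc1 cells and 6.30 and 6.23 in vector cells. Over the whole list the groups did not overlap for 9 of 25 genes (36%), against 53.2% of all genes. Of the 25, 16 lay below the array median on all 4 arrays, and among all such genes the share was 41.5%. Gata6, Tgif2 and Twist2, named for their small p, were among the 9, and the groups overlapped for Twist1.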
